A study of Rattus norvegicus with 2 samples.

Results

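The microRNAs (miRNAs) described here are miR-155 and miR-146, counted in exosomes released by cultured heart muscle cells. They were taken by name, as every row of the count table named miR-155, miR-146a or miR-146b, with or without an arm. This gave 4 of 635 miRNA rows, listed as mmu-miR-155, mmu-miR-155-5p, mmu-miR-146a-5p and mmu-miR-146b-5p and named below without the mouse prefix. The cells were primary cardiomyocytes from the hearts of newborn Wistar rats of 1 to 2 days of age, enriched by differential adhesion and plated with the cell division blocker BrdU. After serum starvation, part of the cells received 1 μmol/L angiotensin II (Ang II), a peptide hormone that enlarges them, for 48 h, and exosomes of these hypertrophic cells are called HC-Exo. The other cells received no Ang II, and their exosomes are called NC-Exo. Exosomes were precipitated from the culture medium with a commercial reagent, which does not select for vesicles of 1 cell type, and their small RNA was sequenced. Each condition is represented by 1 library. Within the sequencing data, no difference below therefore has a replicate check, and the tests compare these 2 libraries rather than the conditions. The paper also measured miR-155 by quantitative PCR in independent determinations, and it reported essentially the same result as by sequencing. It does not state which arm was measured or whether the determinations came from separate cultures, and those values were not used here.

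Both miRNAs are textbook parts of the response of immune cells to inflammatory signals through Toll-like receptors and the transcription factor NF-kB. miR-155 is processed from the transcript of its host gene, Mir155hg, and is known to favour inflammation by repressing brakes of cytokine and kinase signaling such as SOCS1 and SHIP1. miR-146a and miR-146b come from separate genes and are known for the opposite role, since they repress the adaptors IRAK1 and TRAF6 and so close a negative feedback on NF-kB. Both are best known in macrophages and lymphocytes, and miR-146 is also found in endothelial and other cells. The comparison of NC-Exo with HC-Exo asks whether exosomes of hypertrophic cells carry more of either miRNA.

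The mature sequences, from the RefSeq annotation of the rat assembly GRCr8, show which members belong together. Capitals mark the seed, bases 2 to 8, through which a miRNA pairs with its targets. The entries matched by name were miR-155-5p at chr11:37261117-37261139 on the plus strand, miR-146a-5p at chr10:28350053-28350074 on the minus strand and miR-146b-5p at chr1:255144874-255144897 on the plus strand.
miR-155-5p: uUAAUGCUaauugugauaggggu
miR-146a-5p: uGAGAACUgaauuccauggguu
miR-146b-5p: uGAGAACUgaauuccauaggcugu

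The miR-146 pair had the same seed, GAGAACU, and no other of the 312 table rows that matched a RefSeq name carried it. The 22 bases of miR-146a-5p were identical to the first 22 of miR-146b-5p at 20 positions, with the substitutions G18A and U21C, counted from the 5′ end of miR-146a-5p, and miR-146b-5p was 2 bases longer. A read that ends before position 18 would therefore carry the same letters for both, and how the authors assigned such reads is not given in the sources used here. The seed of miR-155-5p, UAAUGCU, was found in no other matched row. From the 5′ end, miR-155-5p had the same base as miR-146a-5p at 10 of 22 positions.

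The row named miR-155 carries no arm, so it could not be matched to a mature sequence. The miR-155 hairpin, at chr11:37261114-37261178 on the plus strand of GRCr8 and within Mir155hg, is shown because both of its arms, in capitals, could stand behind such a name.
Mir155 hairpin: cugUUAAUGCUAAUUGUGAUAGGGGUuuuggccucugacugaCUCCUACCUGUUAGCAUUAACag

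In older miRNA catalogues the name miR-155 without an arm stood for the strand now called miR-155-5p. The reference behind these row names is not given in the sources used here, and the names are those of mouse miRNAs while the cells were of rat origin. Which reads the rows miR-155 and miR-155-5p hold, and how they differ, is thus not known, and they are kept apart below. The deposited rows with at least 10 reads in all otherwise run in alphabetical order of name. There, miR-155-5p stands in its place, between miR-154-5p and miR-15b-3p. The row named miR-155 stands out of place, between miR-434-5p and miR-450b-3p. It may therefore carry a changed or wrong name, which was not tested. No row is listed for the 3p arm of miR-155, miR-146a or miR-146b.

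NC-Exo held 102608 miRNA reads and HC-Exo 133155, and levels are given as reads per 1000000 reads on miRNAs (RPM), at 9.75 RPM for each read of NC-Exo and 7.51 RPM for each read of HC-Exo. Of the cardiomyocyte miRNAs, 6 of 6 had reads, and miR-1a-3p, which is specific to muscle, led both libraries with 16.2% and 17.5% of the reads. By the test explained below, 1 of these 6 was called, miR-499-5p, higher in HC-Exo with 10 and 35 reads, beside 4.71% called over all tested. With no limit on the ratio, 4 of the 6 had an adjusted p-value under 0.05, beside 22.4% of all tested and 43.0% of those with at least 100 reads. They were miR-1a-3p, miR-133a-3p, miR-133b-3p and miR-499-5p, all higher in HC-Exo. miR-208a-3p was also higher, with 9 and 24 reads (adjusted p = 0.211 by the exact binomial test). miR-208b-3p was lower in RPM, with 57 and 66 reads and a log2 ratio of -0.16 (adjusted p = 0.730 by the exact binomial test). The median log2 ratio of the 6 was 0.43, beside 0.098 over all tested. Intervals of levels, shares and ratios are 95% exact (Clopper-Pearson) intervals, and those of differences between members are 95% exact conditional intervals. They cover counting error only, not the spread between cultures. PCR reads are not independent molecules, so the intervals can be too narrow even for counting error.

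The members fell into an abundant pair and a scarce pair. miR-146a-5p had 396 reads in NC-Exo, which is 3859 RPM (3489 to 4258), and 525 reads in HC-Exo, which is 3943 RPM (3613 to 4294). It ranked 42 among all miRNAs in both libraries. miR-146b-5p had 208 reads in NC-Exo, or 2027 RPM (1761 to 2322), and 289 reads in HC-Exo, or 2170 RPM (1928 to 2435). It ranked 60 in NC-Exo and 56 in HC-Exo. For both miR-146 members the intervals of the libraries overlapped for the most part.

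The row named miR-155 had 6 reads in NC-Exo, or 58.5 RPM (21.5 to 127), and 29 reads in HC-Exo, or 218 RPM (145.9 to 313). These intervals did not overlap, and its rank moved from 300 to 187. The row named miR-155-5p had 11 reads in NC-Exo, or 107 RPM (53.5 to 192), and 8 reads in HC-Exo, or 60.1 RPM (25.9 to 118). Here the intervals overlapped, and the rank moved the other way, from 243 to 302. Even the higher of the miR-155 levels, 0.0218% of the miRNA reads in HC-Exo, stood beside 0.394% for miR-146a-5p in the same library.

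**Figure D1:**
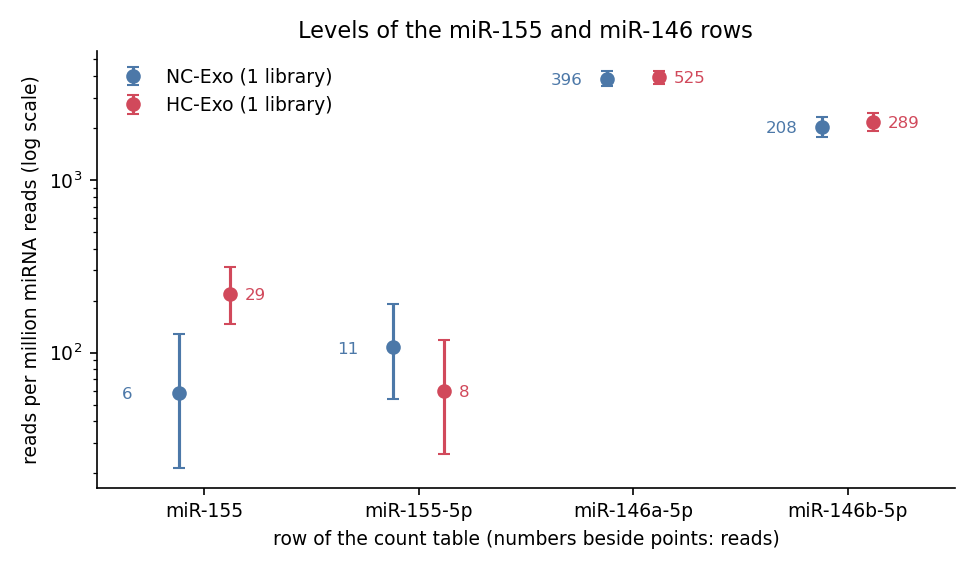
Levels of the 4 rows in RPM on a log axis, 1 point for each library with its 95% exact interval and its number of reads. The miR-146 points of NC-Exo and HC-Exo lie together at the top, at 2027 RPM or more, while the row named miR-155 moves from 58.5 to 218 RPM and miR-155-5p from 107 to 60.1 RPM.

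In order of reads, miR-146a-5p was first and miR-146b-5p second in both libraries. miR-146a-5p made up 65.6% (61.6 to 69.4%) of the reads of the miR-146 pair in NC-Exo and 64.5% (61.1 to 67.8%) in HC-Exo, so the balance between these miRNAs of 1 seed was nearly the same in both libraries. The lower places changed hands between the rows of miR-155. The row without an arm made up 35.3% (14.2 to 61.7%) of the reads of both miR-155 rows in NC-Exo, an interval that includes equal shares, and 78.4% (61.8 to 90.2%) in HC-Exo, where it was the higher of the pair.

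Between the families, taken by row name alone, the gap was wide in both libraries. The miR-146 rows together had 604 reads in NC-Exo and the miR-155 rows 17, a ratio of 35.5. In HC-Exo they had 814 and 37 reads, a ratio of 22.0. The miR-155 rows were thus 2.74% (1.60 to 4.35%) of the reads of all 4 rows in NC-Exo and 4.35% (3.08 to 5.94%) in HC-Exo, intervals that overlap. A ratio between different miRNAs also carries the unequal efficiency with which adapters are ligated to different sequences, which was not measured.

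The RPM of HC-Exo were divided by those of NC-Exo, and the log2 of this quotient is the log2 ratio used below. Whether more vesicles came from cells that load a miRNA, or each vesicle held more of it, cannot be told apart in such bulk libraries. Each of the 340 miRNAs that reached 10 reads in all was tested by the two-sided exact binomial test, adjusted by the Benjamini-Hochberg method over the 340. Calls required both an adjusted p-value below 0.05 and a log2 ratio of 1 or more in either direction. All 4 members could be tested, 1 was called higher in HC-Exo and 0 were called lower. Over all miRNAs tested, 4.71% were called, 2.65% as higher and 2.06% as lower.

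The called member was the row named miR-155, with a log2 ratio of 1.90 (interval 0.60 to 3.46, adjusted p = 0.0121 by the exact binomial test). The study listed this row among its differentially expressed miRNAs from the same libraries before choosing it for follow-up, so the test is not independent evidence. With counts under 3 raised to 3, it held place 2 of the 340 by log2 ratio, after miR-5620-3p, a miRNA named after its values were seen, with 3 and 17 reads and a log2 ratio of 2.13 that was not called. Its call rested on few reads. With 35 reads over both libraries, a split of at least 28 in HC-Exo to 7 in NC-Exo, a log2 ratio of 1.62, was needed for an adjusted p-value under 0.05, and the observed split was 29 to 6. Large ratios were common at this depth, since 23.0% of the 148 miRNAs with 10 to 49 reads had a log2 ratio of at least 1 and 3.38% were called higher.

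The row named miR-155-5p had a log2 ratio of -0.84 (interval -2.35 to 0.61, adjusted p = 0.456 by the exact binomial test), in the opposite direction, and was not called. With 19 reads in all, only a split of 17 to 2 would have passed as higher and 5 to 14 as lower, so that an observed drop of less than 3.63-fold could not pass at this depth.

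The miR-146 members were measured far more precisely. miR-146a-5p had a log2 ratio of 0.031 (interval -0.16 to 0.22, adjusted p = 0.888 by the exact binomial test) and miR-146b-5p one of 0.099 (interval -0.16 to 0.36, adjusted p = 0.677 by the exact binomial test). Neither was called, and the direction of both turns under other scalings, as both log2 ratios became negative with upper-quartile scaling, at -0.093 and -0.025. As ratios, the intervals ran from 0.895 to 1.17 for miR-146a-5p and from 0.893 to 1.29 for miR-146b-5p, so both end well below a doubling. At the depth of miR-146a-5p, a log2 ratio of 0.25 would have been enough for an adjusted p-value under 0.05. Of the 135 miRNAs with at least 100 reads, 0.741% were called, and 43.0% had an adjusted p-value under 0.05 with no limit on the ratio, a group that did not include either miR-146 member.

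**Figure D2:**
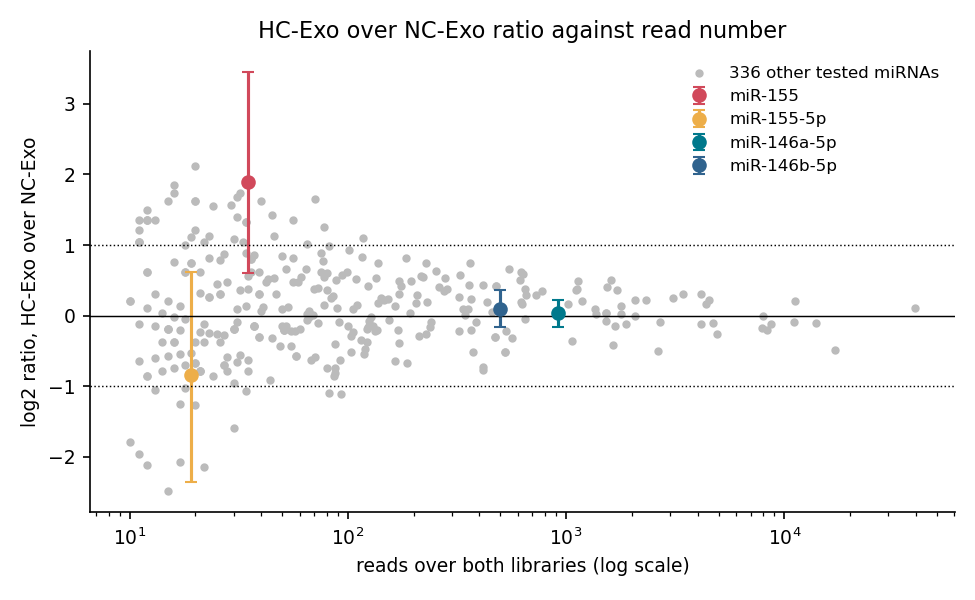
Log2 ratio of HC-Exo to NC-Exo (vertical axis) against the reads over both libraries (log axis) for the 340 miRNAs tested, with 95% exact intervals on the 4 members. Grey points are the other 336 miRNAs, with a library at or under 3 reads set at 3, and dotted lines mark log2 ratios of 1 and -1. The scatter widens to the left, where both miR-155 rows lie, and both miR-146 rows lie near 0 on the right.

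Whether the members differed from each other in this ratio was tested on pairs, where the library totals cancel. For 7 comparisons, 6 between single rows and 1 between the sums of each family, Fisher's exact test (two-sided) was adjusted over the 7. The row named miR-155 differed from the other three. Its log2 ratio was above that of miR-146a-5p by 1.87 (interval 0.55 to 3.44, adjusted p = 0.0110 by Fisher's exact test) and above that of miR-146b-5p by 1.80 (interval 0.47 to 3.38, adjusted p = 0.0110 by Fisher's exact test). Its difference from miR-155-5p was 2.73 (interval 0.67 to 4.84, adjusted p = 0.0110 by Fisher's exact test). All of these pairs hold that row, so they are not independent evidence either.

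The pairs without that row showed no difference past the threshold. miR-155-5p lay below miR-146a-5p with a difference of -0.87 (interval -2.40 to 0.60, adjusted p = 0.284 by Fisher's exact test) and below miR-146b-5p with -0.93 (interval -2.48 to 0.55, adjusted p = 0.284 by Fisher's exact test). Both intervals are wide enough to hold a 4-fold gap, so they do not show that the rows moved alike. miR-146a-5p and miR-146b-5p differed by -0.068 (interval -0.40 to 0.26, adjusted p = 0.694 by Fisher's exact test), which as a quotient of their ratios is between 0.760 and 1.20. Sums by family take the row without an arm as miR-155 by its name alone. Summed in this way, miR-155 had 17 and 37 reads, a log2 ratio of 0.75 (-0.12 to 1.67). The miR-146 sum had 604 and 814 reads, a log2 ratio of 0.055 (-0.099 to 0.21). Their difference of 0.69 (interval -0.19 to 1.63, adjusted p = 0.214 by Fisher's exact test) did not pass the threshold.

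**Figure D3:**
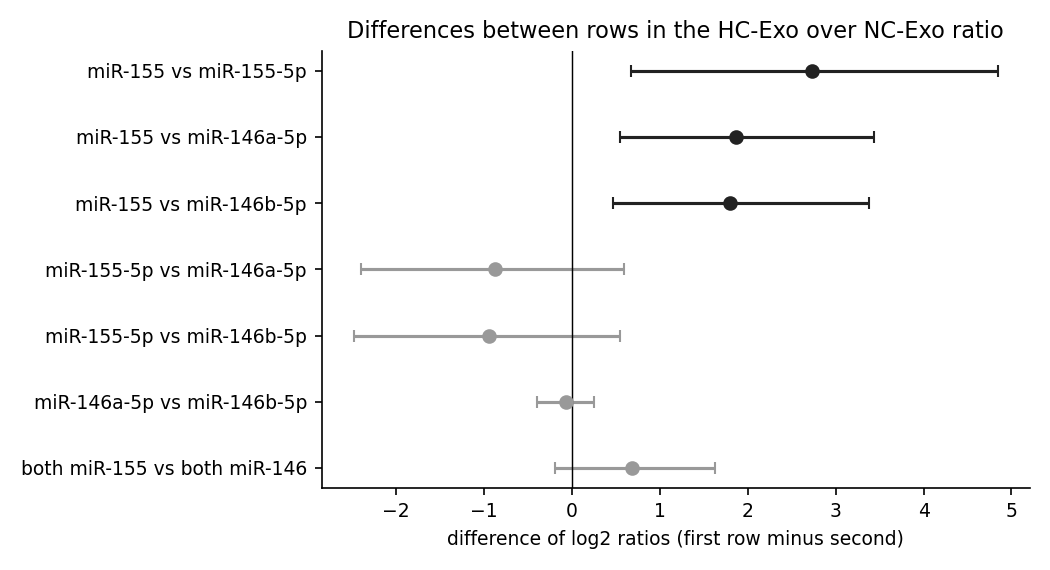
Differences of the log2 ratio (HC-Exo over NC-Exo) between members, first named minus second, with exact 95% intervals on the horizontal axis. Black points have an adjusted p-value under 0.05 by Fisher's exact test, and they are the 3 pairs with the row named miR-155, at 2.73, 1.87 and 1.80. Grey intervals, the sums of each family among them, include 0.

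The dependence on scaling and on small counts differed between the members. Under TMM, upper-quartile and DESeq2 scaling, which lowered every log2 ratio by 0.028 to 0.12, the row named miR-155 stayed between 1.77 and 1.87 and was called each time. With 5 reads added to both libraries its log2 ratio was 1.25. As the sum of both miR-155 rows it was 0.75 and was not called (adjusted p = 0.209 by the exact binomial test). The exact binomial test assumes no spread between cultures. With an assumed coefficient of variation of 0.1 between cultures, edgeR's exact test gave an adjusted p = 0.161 for the row named miR-155. It called 0 miRNAs, with 55 of the 340 at an unadjusted p-value under 0.05, the row named miR-155 among them.

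**Figure D4:**
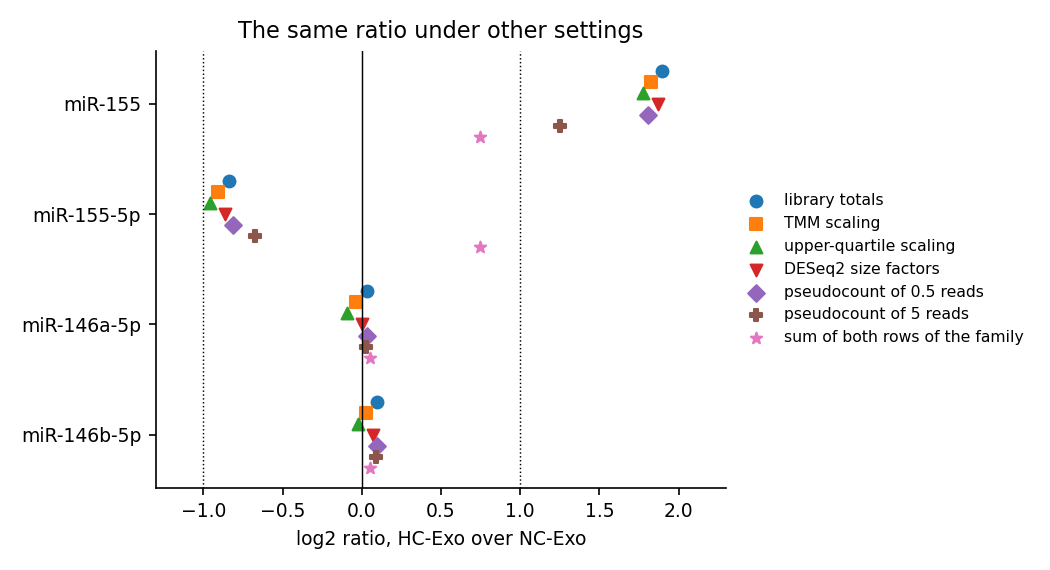
Log2 ratio of HC-Exo to NC-Exo (horizontal axis) for each member under library totals, 3 other scalings, 2 pseudocounts and the sum of both rows of the family, 1 symbol for each setting. Dotted lines mark 1 and -1. The row named miR-155 stays above 1 except as the sum, at 0.75, and the miR-146 rows stay between -0.093 and 0.099.

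The rows most like each member were found by the distance of log2(reads + 0.5) over the 2 libraries, which describes 2 values only. The nearest to the row named miR-155 were miR-337-3p, with 6 and 26 reads, miR-455-3p, with 6 and 25, and miR-140-5p, with 6 and 23. The first and second of these were also called higher in HC-Exo, and miR-140-5p was not (adjusted p = 0.0572 by the exact binomial test). The nearest to miR-155-5p was miR-342-5p, with the same 11 and 8 reads, then miR-409-5p, with 10 and 8, and miR-10b-5p and miR-669f-3p, tied at 11 and 9. The nearest to miR-146a-5p were miR-22-3p, with 414 and 604 reads, miR-133a-3p, with 417 and 694, and miR-378b, with 530 and 535. The nearest to miR-146b-5p were miR-503-3p, with 207 and 282 reads, miR-378a-5p, with 195 and 262, and the tied names miR-199a-3p and miR-199b-3p, with 174 and 301.

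Other miRNAs linked to inflammation were looked at beside the members. Of a list of 12 that respond to or act on Toll-like receptor and NF-kB signaling, 11 had reads and 10 could be tested. None was called higher in HC-Exo and 1 was called lower, miR-212-3p, with 51 and 31 reads and a log2 ratio of -1.09 (adjusted p = 0.00603 by the exact binomial test), beside 2.65% called higher and 2.06% called lower over all 340. The median log2 ratio of the 10 was 0.075, beside 0.098 over all 340. With no limit on the ratio, 5 of the 10 had an adjusted p-value under 0.05, beside 22.4% of all tested. Among all tested miRNAs with at least 100 reads, a depth that most of the 10 reached, this share was 43.0%.

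Among these, miR-21a-5p, which is induced in inflamed and fibrotic tissue, had 1784 reads in NC-Exo, 2588 in HC-Exo and a log2 ratio of 0.16 (adjusted p = 0.00300 by the exact binomial test). miR-125b-5p, which is known to repress the cytokine TNF, had 922 reads in NC-Exo, 1390 in HC-Exo and a log2 ratio of 0.22 (adjusted p = 0.00389 by the exact binomial test). Both were below the limit for a call, as was let-7i-5p, which is known to target Toll-like receptor 4, at 0.30 (adjusted p = 0.0342 by the exact binomial test). miR-132-3p, which is transcribed with miR-212-3p, had 45 reads in NC-Exo, 78 in HC-Exo and a log2 ratio of 0.42 (adjusted p = 0.287 by the exact binomial test). Of the other tested names, miR-125a-5p, let-7e-5p, miR-181c-5p and miR-187-3p had log2 ratios between -0.27 and -0.011, none past an adjusted p-value of 0.05, and miR-9-5p, with 2 and 1 reads, was too scarce to test. The members sat inside the range of this list by level, with the miR-146 pair among its abundant part and the miR-155 rows among its scarce part.

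Leukocytes are the cells best known for miR-155 and miR-146, and a primary heart cell culture can hold some of them. Of the leukocyte miRNAs, 4 had reads, with a summed level of 1364 RPM in NC-Exo and 1720 RPM in HC-Exo. miR-223-3p, which marks myeloid cells and is also on the inflammation list, had 43 reads in NC-Exo, 94 in HC-Exo and a log2 ratio of 0.75 (adjusted p = 0.0241 by the exact binomial test), below the limit for a call. miR-142a-5p, a miRNA of blood-forming cells, had 12 reads in NC-Exo, 23 in HC-Exo and a log2 ratio of 0.56 (adjusted p = 0.528 by the exact binomial test), and miR-142a-3p had 2 reads in each library. miR-150-5p, a lymphocyte miRNA, had 83 reads in NC-Exo, 110 in HC-Exo and a log2 ratio of 0.030 (adjusted p = 0.998 by the exact binomial test). The part of leukocyte RNA in the reads of miR-155 or miR-146 was not tested.

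**Figure D5:**
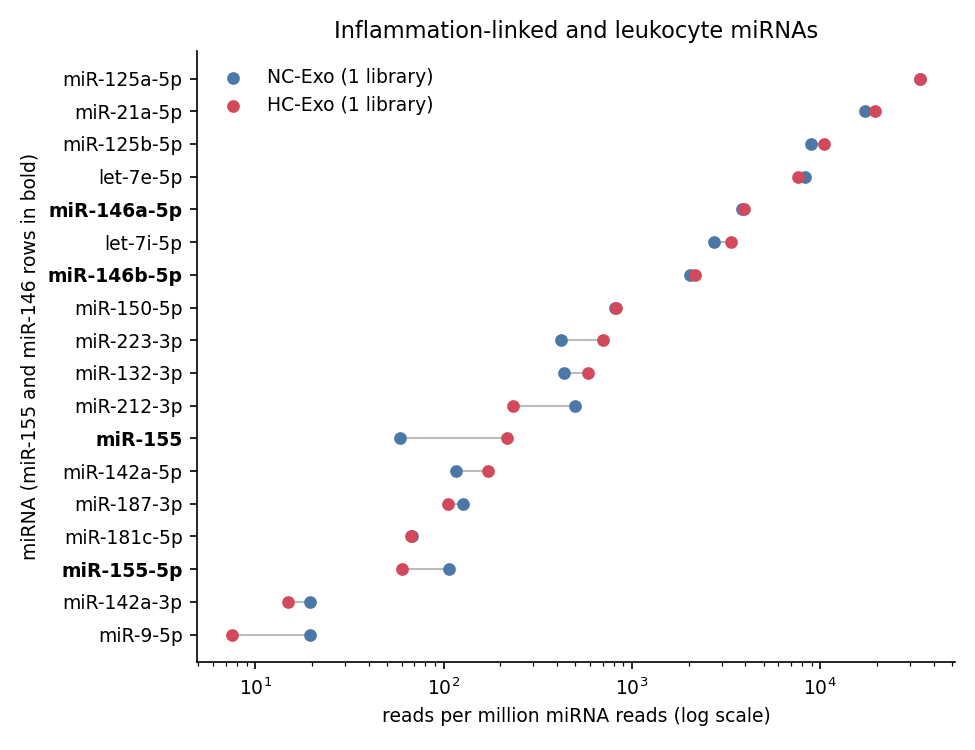
Levels in RPM on a log axis of the 4 members, in bold, and of the inflammation-linked and leukocyte miRNAs with reads, blue for NC-Exo and red for HC-Exo, joined by a line. The points of miR-146a-5p and miR-146b-5p nearly coincide, the row named miR-155 has a wide gap to the right and miR-155-5p one to the left.

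Endothelial cells, another known source of miR-146, were represented by miR-126a-3p, with 474 and 712 reads and a log2 ratio of 0.21 (adjusted p = 0.0572 by the exact binomial test), and by miR-126a-5p, with 8875 and 8185 reads and a log2 ratio of -0.49 (adjusted p = 1.81e-107 by the exact binomial test). The arms of this 1 hairpin thus had ratios of opposite sign. The fibroblast and mesenchymal miRNAs had a summed level of 38252 RPM in NC-Exo and 39067 RPM in HC-Exo, and the red blood cell miRNAs 12913 and 13405 RPM, where miR-486a-5p and miR-486b-5p carry identical counts of 654 and 875 and so may count the same reads. All 5 fibroblast and mesenchymal miRNAs had reads, and they did not move one way. Of these, 1 was called, miR-199a-5p, higher with 19 and 59 reads, beside 4.71% called over all tested. With no limit on the ratio, 4 of the 5 had an adjusted p-value under 0.05, beside 22.4% of all tested and 43.0% of those with at least 100 reads. Among these 4, miR-214-3p was lower, with 1368 and 1260 reads and a log2 ratio of -0.49 (adjusted p = 2.91e-16 by the exact binomial test). Of the red blood cell names, 3 of 4 had reads and none was called or had an adjusted p-value under 0.05. The part of these cells in the reads of the members was not tested either.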

How the data were processed

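Small RNA from exosomes was sequenced with an Illumina small RNA kit on a HiSeq, with 1 library for NC-Exo and 1 for HC-Exo. The authors deposited raw read counts for each mature miRNA name without normalization, and these were the only values used. Their processing notes name Bowtie2 and the mouse builds mm9 and GRCm38, and the trimming, the miRNA reference and the handling of shared reads are not given in the sources used here. The deposited normalized values are the counts times 1 constant for each library, within 0.02, in 634 of 635 rows. The authors' own comparison (fold changes and p-values) was not used.

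Counts were divided by the library totals, 102608 and 133155 reads, to give RPM. Tests were the exact binomial test, on miRNAs that reached 10 reads in all, and Fisher's exact test between members, two-sided, with Benjamini-Hochberg adjustment. Intervals are 95% exact intervals. For ratios in plots and calls, counts under 3 were raised to 3. Alternatives used edgeR 4.0.16 and DESeq2 1.42.0 in R 4.3.3, and the rest Python 3.11.15 with scipy 1.17.1. Named miRNAs are the members, the lists for inflammation and cell types, the 3 rows nearest to each member with ties, and the most abundant miRNA. Also named are miR-5620-3p, after its values were seen, and the rows listed next to the miR-155 names. The members and lists were chosen with earlier results of these data known.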

Additional observations from a re-analysis of the deposited data

How the results depend on the processing

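No paired analysis was possible because each condition has a single library, and for the same reason none could be left out. Of 88 values under other settings, 66 were counted as unchanged. For ratios this meant the same direction and side of the threshold, and for differences between members a value inside the interval. Counts of calls had to stay close to the main count, and ranks to be identical. Many of these values could hardly change, since an assumed spread leaves the ratio as it is and can only remove calls. The tally is therefore no measure of stability.
The log2 ratio of miR-146a-5p was 0.031 with library totals, -0.038 with TMM scaling and -0.093 with upper-quartile scaling, and that of miR-146b-5p was 0.099 with library totals and -0.025 with upper-quartile scaling, because these scalings lower every ratio by 0.069 and 0.12. The entry miR-155 lost its call in edgeR's exact test when a spread between cultures was assumed (adjusted p = 0.161, 0.768 and 1.00 at coefficients of variation of 0.1, 0.2 and 0.4), with the ratio itself at 1.90. As the sum with miR-155-5p, the ratio was 0.75, which ended the call of miR-155 and turned the direction of miR-155-5p from -0.84.
Over all miRNAs, 16 were called, 9 higher and 7 lower. With a spread assumed, 0 were called, 0 higher and 0 lower, although 28, 20 and 1 passed the limit on the ratio at an unadjusted p-value under 0.05 (coefficients of 0.1, 0.2 and 0.4). The entry miR-155 was among those that passed at 0.1 and 0.2, but not at 0.4. Upper-quartile scaling gave 12 calls, 5 of them higher (41.7%, beside 56.2% with library totals) and 7 lower. A minimum of 50 reads, which leaves out both miR-155 entries, gave 7, with 5 higher and 2 lower. Among miRNAs that reached 10 reads, miR-155 had rank 299 in NC-Exo instead of 300. The miR-155 entries rest on 6 to 29 reads in a library, and their intervals are wider than those of the miR-146 entries.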
